A study of Mus musculus with 594 samples.

Results

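The genes of oxidative phosphorylation were described as a set of 85 genes out of 11807 measured in αTC1 and βTC3 cells. A gene was taken into the set when its symbol in the array annotation begins with Nduf, Sdha, Sdhb, Sdhc, Sdhd, Uqcr, Cox4, Cox5, Cox6, Cox7, Cox8 or Atp5. This rule reads no measured value, although the genes and lists were chosen with earlier results of these data known. Of the 85 genes, 34 are named for complex I, 4 for complex II, 7 for complex III, 16 for complex IV and 17 for the ATP synthase, complex V. The prefixes also take in 7 assembly factors (Ndufaf1, Ndufaf3, Ndufaf4, Ndufaf5, Sdhaf1, Sdhaf2 and Sdhaf4), and the complex I group holds 1 entry named as a pseudogene, Ndufs5-ps. Cox7a2l, which is known to act in joining complexes into supercomplexes, is counted here under complex IV by its name, and Ndufa4 under complex I, although its protein is now placed in complex IV.

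Oxidative phosphorylation makes most of the ATP of a respiring cell. Complexes I and II pass electrons from NADH and succinate to ubiquinone, complex III passes them on to cytochrome c, and complex IV passes them to oxygen, while complexes I, III and IV pump protons that drive the ATP synthase. In islet beta cells the ATP made in this way links glucose breakdown to insulin release, and the genes measured here are the nuclear ones, whose products are imported into the mitochondrion.

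αTC1 and βTC3 are mouse pancreatic endocrine tumour lines with, by their names and markers, features of glucagon and insulin cells. Cells were given 1 of 29 compounds that act on chromatin-modifying enzymes, or the solvent DMSO alone, and RNA was taken after 1, 6 or 24 h and hybridised to Affymetrix arrays. αTC1 gave 299 arrays and βTC3 295, and each compound was used at 1 dose. Comparisons were made with DMSO of the same line and time, so all compounds of a line and time share the same DMSO arrays (14 in αTC1 and 12 in βTC3 at 24 h). The hydroxamic acids, inhibitors of histone deacetylases, were trichostatin A at 0.22 µM, SAHA at 1.3 µM, LBH-589 at 0.015 µM, PXD101 at 2.4 µM, ITF-2357 at 10 µM, CRA-024781 at 1.5 µM, pyroxamide at 10 µM and scriptaid at 2 µM, together 22 arrays of αTC1 and 24 of βTC3 at 24 h. The ortho-amino anilides, a second class of deacetylase inhibitors, were MS-275 at 2.9 µM, CI-994 at 10 µM and MGCD-0103 at 1.1 µM, with 8 arrays of αTC1 and 9 of βTC3 at 24 h. Also described one by one are the cyclic tetrapeptide deacetylase inhibitors apicidin (1.4 µM) and HC-toxin (0.12 µM), the histone methyltransferase inhibitors chaetocin (1.7 µM) and BIX-01294 (10 µM), and the nucleoside analogues 5-azadeoxycytidine and zebuarine, spelled here as in the labels (both 10 µM). The other compounds were AMI-1, RG-0108, BRD5298, BRD8451 and BRD9773 at 10 µM, BRD6929 at 0.91 µM, BRD-A94377914 at 3 µM, BRD-K17311666 at 4.3 µM, BRD-K22912318 at 5 µM, BRD-K62233722 at 3.7 µM, BRD-K90919562 at 4.1 µM and BRD-K92415738 at 3.2 µM. Each line is 1 established culture, and the labels do not say whether replicate arrays came from separate passages, so p-values measure only the spread between these arrays, which may be technical. In bulk RNA of this kind fewer cells with a transcript and less transcript per cell cannot be told apart.

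The values are log2 array intensities after the authors' normalization, and a gene was called where limma's test gave an adjusted p under 0.05. Array medians ran from 4.363 to 4.729 with an SD of 0.0421. In DMSO at 24 h all 4 alpha cell markers measured were higher in αTC1 than in βTC3, and of 5 beta cell markers 0 were higher and 4 lower. The 16 markers of acinar, duct, fibroblast, macrophage and endothelial cells had mean levels between 2.63 and 6.05. At 24 h the summed intensity of these markers had a median of 178.5 with hydroxamic acids, 176.5 with anilides and 171.3 with apicidin in αTC1, against 202.6 in DMSO, and of 138.7, 139.9 and 130.5 in βTC3, against 132 in DMSO. The 3' over 5' difference of the beta-actin control probe sets, a sign of RNA quality, averaged 4.86 with hydroxamic acids, 4.92 with anilides, 5.67 with apicidin and 5.70 with chaetocin in αTC1, against 4.83 with DMSO. In βTC3 it averaged 4.85, 5.04, 5.02 and 5.06 in that order, against 4.46 with DMSO. Single αTC1 arrays ran from 4.38 to 6.90 with apicidin and from 4.83 to 6.57 with chaetocin, against 4.39 to 5.41 with DMSO. For Gapdh the averages of these 4 groups lay between 0 and 0.05 in αTC1, against -0.04 with DMSO. In βTC3 they lay between -0.04 and 0.07, against -0.03. The part of the marker sums and of these differences in the results below was not tested. The signal of 81 of the 85 genes lay above the median gene (5.01), and Cox4i2 (2.98), Cox6b2 (3.15), Cox8b (3.21) and Cox6a2 (4.31) lay below it, where arrays compress differences.

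Promoters are shown for 4 genes that the results turn on: Cox7a1, which rose most often, Atp5g2, which fell in both lines, Ndufaf5, whose response differed most between the lines, and Ndufs8, the largest fall in βTC3 with anilides. Each printed stretch holds 250 bases before the RefSeq start and 30 after it, read 5′ to 3′ on the gene's strand in GRCm38.p6, at chr7:30183921-30184200 (plus), chr15:102671018-102671297 (minus), chr2:140170396-140170675 (plus) and chr19:3912745-3913024 (minus). Capitals mark a match to the NRF1 core (CGCATGCG, the same on both strands) or to the ETS motif bound by GABPA (CCGGAAG or, on the other strand, CTTCCGG), and Cox7a1 holds neither in this stretch.
Cox7a1: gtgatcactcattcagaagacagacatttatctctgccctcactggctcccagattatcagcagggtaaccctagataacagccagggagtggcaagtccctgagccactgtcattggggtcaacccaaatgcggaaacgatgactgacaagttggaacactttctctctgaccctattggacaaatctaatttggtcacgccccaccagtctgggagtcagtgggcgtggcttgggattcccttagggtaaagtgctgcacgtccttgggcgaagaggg
Atp5g2: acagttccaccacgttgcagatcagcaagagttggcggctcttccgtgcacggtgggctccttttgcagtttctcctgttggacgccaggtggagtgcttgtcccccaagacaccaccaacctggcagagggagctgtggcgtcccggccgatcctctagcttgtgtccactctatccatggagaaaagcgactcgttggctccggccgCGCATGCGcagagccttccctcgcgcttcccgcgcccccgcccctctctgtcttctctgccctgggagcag
Ndufaf5: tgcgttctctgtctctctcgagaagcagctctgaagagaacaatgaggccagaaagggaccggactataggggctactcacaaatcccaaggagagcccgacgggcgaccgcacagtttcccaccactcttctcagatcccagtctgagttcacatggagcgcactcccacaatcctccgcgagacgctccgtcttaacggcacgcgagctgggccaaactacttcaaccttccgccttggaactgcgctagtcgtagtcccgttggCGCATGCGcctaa
Ndufs8: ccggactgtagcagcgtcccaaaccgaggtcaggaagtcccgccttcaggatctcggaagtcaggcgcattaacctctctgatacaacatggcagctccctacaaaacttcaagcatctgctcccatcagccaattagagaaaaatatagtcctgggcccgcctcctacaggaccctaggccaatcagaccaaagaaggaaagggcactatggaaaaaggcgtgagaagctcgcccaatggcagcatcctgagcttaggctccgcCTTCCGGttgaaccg

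NRF1 and GABPA are transcription factors known to act on many nuclear genes of the respiratory chain, and YY1 (searched as AAGATGGCG on both strands) is another. The search ran over windows of 300 bases, the printed stretch and the bases up to 50 after the start, and RefSeq held such windows for 70 of the 85 genes, 75 windows in all. In these 75 windows the NRF1 core and the ETS motif occurred together in 5, and YY1 with each of them in 1, and 0 windows held matches of different motifs that shared letters. The NRF1 core was in 11 of the 75 windows (14.7%), against 1.87% of all 32851 promoter windows of the same table, and the ETS motif in 18 (24%), against 8.86%. YY1 matched 7 windows (9.33%), against 1.4% of all. The windows of these genes had a median GC content of 58.3%, against 52.7% over all windows, and a match is a run of letters and not a shown site.

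The lines were first compared without compound. In DMSO at 24 h most genes of the respiratory chain were higher in αTC1 than in βTC3: 68 of 85 were higher and 4 lower by limma's test, together 84.7%, where 59.6% of all genes differed, 30.7% of them upward and 28.9% downward (percentages of all genes). The median log2 difference was 0.64 over the 85 genes, against 0.02 over all genes. Of the 85 genes 22 differed at least 2-fold, a cut not counted over all genes. In 49 genes every αTC1 array lay above every βTC3 array, and in 0 every αTC1 array lay below. The share of all genes without overlap was not counted, and the 59.6% that passed limma's test is another measure. Within each of the 7 batches named in the titles the median difference lay between 0.53 and 0.74.

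The difference was spread over all complexes. Of the complex I genes 28 of 34 were higher in αTC1 and 3 lower (median 0.61), as were 4 of 4 of complex II (0.84), 7 of 7 of complex III (1.08), 14 of 17 of the ATP synthase (0.57) and 6 of 7 assembly factors (1.28). Complex IV differed least, with 9 of 16 higher, 1 lower and a median of 0.24. This group holds all 4 genes of the set below the median signal, where arrays compress differences, so its rank is uncertain. The widest difference was in Ndufa10, an accessory subunit of complex I, whose lowest, median and highest levels were 10.62, 10.94 and 11.23 in αTC1, against 8.71, 9.03 and 9.35 in βTC3. All 14 αTC1 arrays lay above all 12 βTC3 arrays, with a log2 difference of 1.88 ± 0.053 (SE, limma adjusted p = 5.35e-21). Ndufs1, the largest iron-sulphur subunit of complex I, had 10.03, 10.39 and 10.60 in αTC1, against 8.41, 8.62 and 8.94 in βTC3, again with no overlap (1.68 ± 0.068). Uqcrc1, a core subunit of complex III, had 9.36, 10.09 and 10.48, against 7.71, 8.40 and 8.59 in βTC3 (1.69 ± 0.093), and here too the groups stood apart. Assembly factors of complexes I and II, Ndufaf3 (1.77 ± 0.065) and Sdhaf4 (1.40), were among the widest differences, as were the accessory subunit Ndufb3 (1.47) and Sdhc (1.37), a membrane anchor of complex II.

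The ring of the ATP synthase is built from c subunits whose 3 genes encode the same mature protein, and the 3 genes differed between lines unequally. Atp5g1 had a lowest, median and highest level of 11.44, 11.96 and 12.17 in αTC1, against 9.73, 10.36 and 10.53 in βTC3, with no overlap (1.62 ± 0.069). Atp5g3 differed by 0.65, and Atp5g2 by -0.03, which was not called. Cox7a1, the muscle form of a complex IV subunit, had 5.44, 6.77 and 7.47 in αTC1, against 4.72, 5.13 and 5.85 in βTC3, with some overlap (1.41 ± 0.14). Within single batches the lines differed in Cox7a1 by 0.63 to 2.31. The genes lower in αTC1 were Cox6c, a small subunit of complex IV (-0.27), and the complex I subunits Ndufb4 (-0.26), Ndufa1 (-0.18) and Ndufa12 (-0.16). Cox6c had 11.33, 11.47 and 11.62 in αTC1, against 11.54, 11.78 and 11.92 in βTC3, so that the ranges overlapped. The probe sets of Ndufa12 disagreed in direction, and the mean of its probe sets gave 0.36. Without the 2 βTC3 DMSO arrays farthest from their group Ndufa12 differed by -0.12 and was not called. At 1 h 69 genes were higher and 3 lower in αTC1 (58.8% of all genes differed), and at 6 h 68 and 3 (58.6% of all genes).

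**Figure D1:**
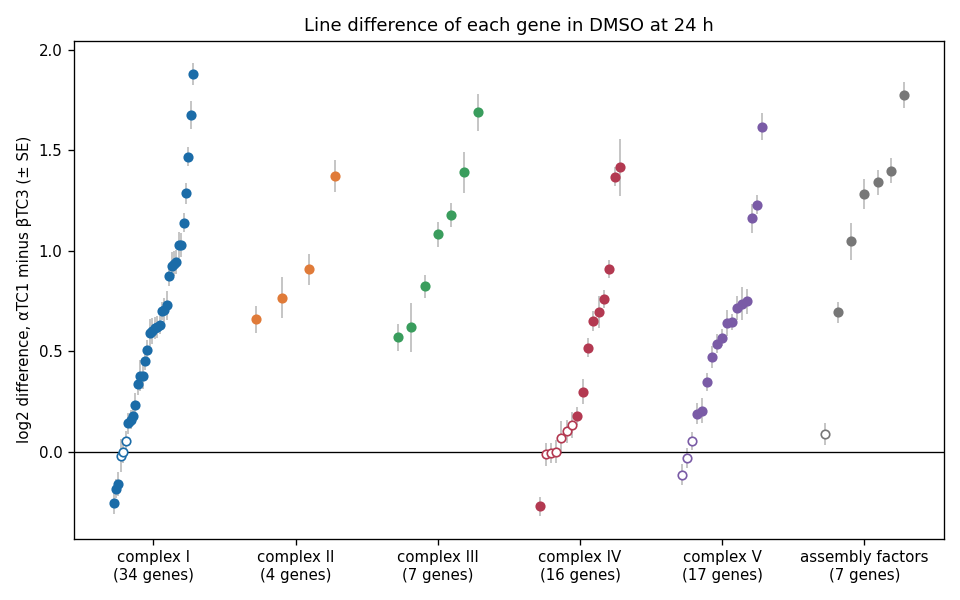
Log2 difference between αTC1 and βTC3 in DMSO at 24 h for each of the 85 genes, grouped by complex, with bars of ± 1 SE and filled points for genes called by limma. Of the 85 points 68 are filled and to the side of αTC1, with Ndufa10 at 1.88, and 4 are filled on the side of βTC3.

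Time in culture without compound moved few of these genes. Between 1 h and 24 h in DMSO 1 gene rose in αTC1, Ndufv3 (0.15, limma adjusted p = 0.0366), and 0 fell, where 7.28% of all genes changed. In βTC3 Cox7a1 (0.36), Ndufv3 (0.23) and Ndufa1 (0.14) rose and Cox6a2 (-0.23), Ndufs4 (-0.19) and Ndufaf3 (-0.19) fell, where 10.5% of all genes changed.

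Compounds were then set against DMSO one at a time. At 1 h no gene of the set was called for any of the 29 compounds in either line by limma (of 2465 tests per line, 54 in αTC1 and 110 in βTC3 had an unadjusted p under 0.05, and 0.0327% and 0.0943% of the tests over all genes were called). At 6 h 167 of 2465 tests of a gene and a compound were called in αTC1 (6.77%, against 20.8% over all genes) and 385 in βTC3 (15.6%, against 22.1%), so that the share lay below that of all genes in both lines. At 24 h 723 tests were called in αTC1 (29.3%, against 21.3% over all genes) and 679 in βTC3 (27.5%, against 18.2%). By direction, of the 723 calls in αTC1 124 were rises and 599 falls, while βTC3 had 331 rises and 348 falls. Over all genes 10.6% of the tests were rises and 10.7% falls in αTC1, and 9.49% and 8.73% in βTC3. The median change of the 85 genes was below 0 for 27 of 29 compounds in αTC1, from -0.31 with CI-994 to 0.02 with AMI-1, an inhibitor of arginine methyltransferases. In βTC3 it was below 0 for 14 and above 0 for 15, from -0.21 with MS-275 to 0.19 with apicidin. More genes fell than rose with 22 compounds in αTC1 and the reverse held for 0, against 10 and 15 in βTC3. Because all compounds of a line are set against the same DMSO arrays, the signs of their medians are not independent of each other. After 1 h, where no gene was called, 24 medians of βTC3 lay above 0 and 5 below, against 12 and 17 for αTC1. Of the 29 compounds 7 had no called gene in αTC1 after 24 h. The part of the shared DMSO arrays in these signs was not tested. At 24 h 1 gene in αTC1 and 6 in βTC3 were called with none of the compounds, and this count was not made over all genes.

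**Figure D2:**
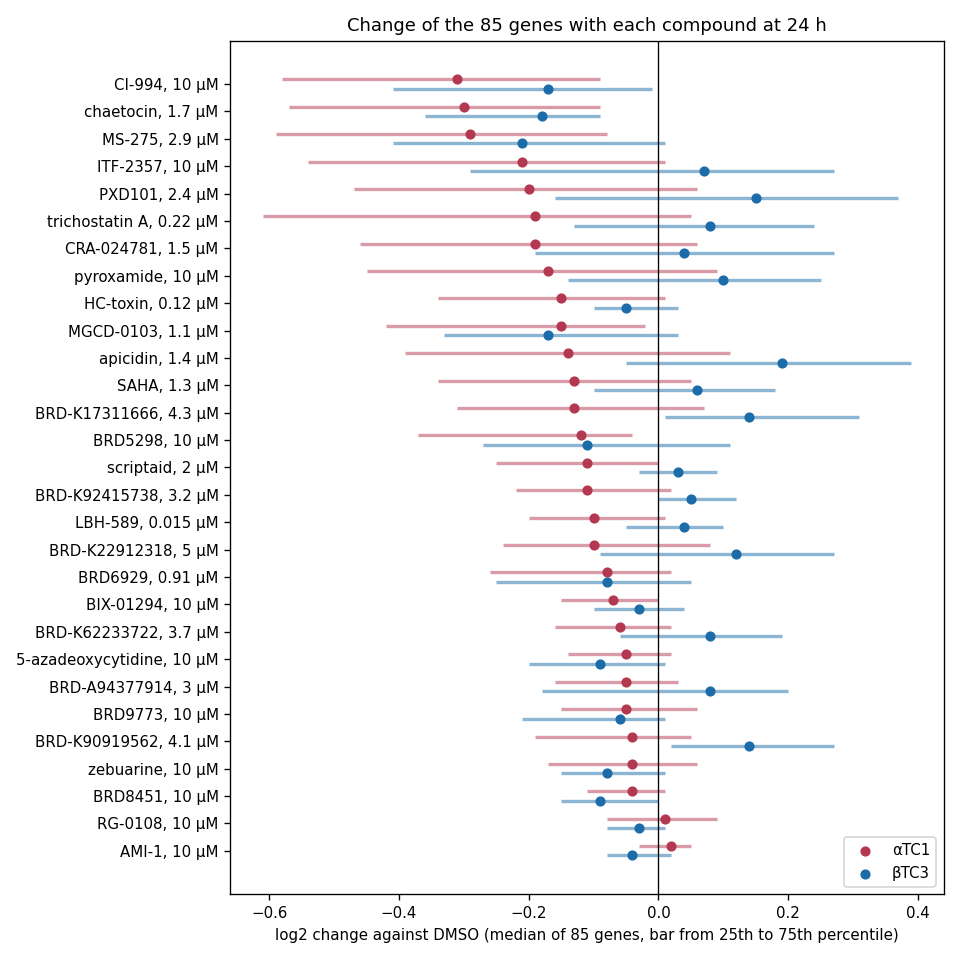
Median log2 change of the 85 genes against DMSO of the same line at 24 h for each of the 29 compounds with its dose, with bars for the first to the last quartile of the genes and αTC1 above βTC3. The medians run from -0.31 to 0.02 in αTC1 and from -0.21 to 0.19 in βTC3.

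The hydroxamic acids lowered most called genes in αTC1 and raised more than they lowered in βTC3. At 24 h 12 of the 85 genes rose and 47 fell in αTC1, together 69.4%, where 50.4% of all genes changed, 26.1% upward and 24.3% downward, and the median change of the set was -0.16. In βTC3 36 rose and 22 fell, together 68.2%, where 43.2% of all genes changed, 22.5% upward and 20.7% downward, and the median change was 0.07. The difference between the lines was itself tested: the response of 1 gene was higher in αTC1 and that of 55 was lower, together 65.9%, where 35.8% of all genes differed, 17.6% upward and 18.2% downward. The median of this difference was -0.26. Of the 85 genes 21 fell in both lines, 11 rose in both, 9 fell in αTC1 and rose in βTC3, 17 fell in αTC1 with no call in βTC3, and 16 rose in βTC3 with no call in αTC1. Within single batches the median lay between -0.27 and -0.1 in αTC1 and between 0.01 and 0.18 in βTC3. The class holds compounds with few calls at these doses, such as scriptaid with 0 genes of the set called by limma in either line (15 in αTC1 and 4 in βTC3 at an unadjusted p under 0.05), and no gene of the set was without overlap between class and DMSO.

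By complex the falls in αTC1 were most numerous in complex I, the largest group of the set (6 rose and 21 fell of 34). In the ATP synthase 0 rose and 13 fell of 17. Complex II had 0 rises and 2 falls, complex III 1 and 4, complex IV 4 and 4 and the assembly factors 1 and 3. In βTC3 12 rose and 11 fell in complex I, 7 rose and 7 fell in the ATP synthase, 2 and 2 in complex II, 4 and 1 in complex III, 7 and 1 in complex IV and 4 and 0 among assembly factors. At 6 h fewer were called, 10 up and 18 down in αTC1 (32.9%, against 50.9% of all genes) and 20 up and 18 down in βTC3 (44.7%, against 50.3%), and the responses of 28.2% of the set (10 higher and 14 lower in αTC1) differed between the lines, where 32.1% of all genes did.

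Cox7a1, the form of a small complex IV subunit known from heart and skeletal muscle, rose most. In αTC1 its lowest, median and highest levels were 6.56, 7.80 and 8.22 with hydroxamic acids, against 5.44, 6.77 and 7.47 in DMSO. In βTC3 they were 5.40, 7.02 and 7.60 with hydroxamic acids, against 4.72, 5.13 and 5.85 in DMSO. The median of the class lay above all DMSO arrays in both lines, while its lowest arrays lay within the DMSO range. Within single batches the class lay above DMSO by 0.44 to 1.75 in αTC1 and by 0.49 to 2.5 in βTC3. The change was 0.93 ± 0.081 in αTC1 (limma adjusted p = 2.51e-16) and 1.50 ± 0.085 in βTC3 (adjusted p = 2.13e-25), and its difference of -0.58 passed the test (adjusted p = 2.55e-05). Cox7a2l rose by 0.70 ± 0.064 in αTC1, where its lowest, median and highest levels were 8.87, 9.92 and 10.44 with the class, against 8.83, 9.06 and 9.46 in DMSO. It rose by 0.56 ± 0.062 in βTC3, with 7.92, 9.13 and 9.65, against 7.94, 8.40 and 9.02 in DMSO. The usual form of the same subunit, Cox7a2, changed by -0.02 in αTC1 and 0.02 in βTC3 and was not called. Cox6b2, a form known from testis, rose by 0.28 in αTC1 and 0.81 in βTC3, where it had 2.95, 3.68 and 5.34 with the class, against 2.75, 3.04 and 3.32 in DMSO, low signals on the array.

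Among the other genes that rose were Sdhaf4, an assembly factor of complex II (0.33 in αTC1 and 0.74 in βTC3), Ndufa4 (0.25 and 0.42) and Uqcr11, a small subunit of complex III (0.15 and 0.55). Sdhaf4 had a lowest, median and highest level of 7.61, 8.57 and 9.21 with the class in βTC3, against 7.48, 7.76 and 8.11 in DMSO, and Uqcr11 had 9.77, 10.42 and 10.81, against 9.66, 9.81 and 10.28. For both genes the median of the class lay above all DMSO arrays of βTC3. Cox4i1, the common form of the regulatory subunit of complex IV, changed by 0.04 in αTC1 and 0.19 in βTC3. Subunits of the NADH-oxidising arm of complex I did not move as one: Ndufv1 rose in both (0.20 and 0.41), whereas Ndufs1 fell by 0.55 in αTC1 and changed by 0.03 in βTC3, with a tested difference of -0.57.

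The strongest falls in αTC1 were in genes of the ATP synthase ring, complex III and complex I assembly. Atp5g1 had 10.33, 10.94 and 11.94 with the class in αTC1 (lowest, median and highest), against 11.44, 11.96 and 12.17 in DMSO, and 9.02, 9.94 and 10.40 in βTC3, against 9.73, 10.36 and 10.53. Atp5g2 had 9.96, 10.29 and 11.31 in αTC1, against 10.93, 11.28 and 11.40, and 10.17, 10.78 and 11.49 in βTC3, against 11.15, 11.28 and 11.50. For both genes and both lines the median of the class lay below all DMSO arrays, apart from Atp5g1 in βTC3, where the lowest DMSO arrays lay below it. Atp5g1 fell by 0.95 ± 0.077 in αTC1 (adjusted p = 8.77e-18, limma) and by 0.38 ± 0.066 in βTC3, and Atp5g2 by 0.79 and 0.52. The third gene, Atp5g3, fell by 0.18 in αTC1 and rose by 0.12 in βTC3, so the 3 genes of this 1 protein changed unequally. Uqcrb, a subunit of complex III, fell by 0.95 ± 0.12 in αTC1, with 7.50, 8.55 and 9.69 in the class, against 8.80, 9.61 and 9.88 in DMSO, and by 0.50 in βTC3.

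Ndufaf5, known to be needed for complex I assembly, had 6.26, 6.97 and 7.71 with the class in αTC1, against 7.20, 7.77 and 8.22 in DMSO. In βTC3 it had 6.29, 6.77 and 7.14, against 6.21, 6.77 and 6.94, with equal medians. It fell by 0.87 ± 0.1 in αTC1 and was not called in βTC3 (0.09), and the difference of -0.95 was the widest of the set (limma adjusted p = 1.74e-11). Next to it stood Ndufaf4 and Ndufaf3 with differences of -0.74 each, and the accessory subunit Ndufa6 with -0.72. Only for Ndufa1 was the response higher in αTC1 than in βTC3 by this test (0.14, adjusted p = 0.00264). Ndufs8, an iron-sulphur subunit of complex I, fell in both lines, by 0.51 in αTC1 and 0.61 in βTC3, and the accessory subunit Ndufb2 fell by 0.43 and the iron-sulphur subunit Ndufs7 by 0.37 in βTC3. Ndufs8 had 9.62, 10.09 and 10.82 with the class in αTC1, against 10.43, 10.63 and 10.86, and 8.86, 9.35 and 10.20 in βTC3, against 9.83, 10.02 and 10.25.

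The 4 genes of complex II, which is also the succinate dehydrogenase of the citric acid cycle, split. The iron-sulphur subunit Sdhb fell by 0.67 in αTC1 and 0.28 in βTC3, and the anchor Sdhd by 0.59 and 0.22, the last not called without replicate 1 (-0.22) or replicate 2 (-0.21). The flavoprotein Sdha changed by 0.06 in αTC1, not called, and rose by 0.32 in βTC3, and the anchor Sdhc changed by -0.09, not called, and rose by 0.41. In complex III the Rieske protein gene Uqcrfs1 changed by 0.02 in αTC1 and 0.29 in βTC3, and the core subunit Uqcrc1 by -0.53 and 0.00. The catalytic ATP synthase subunit gene Atp5b changed by -0.34 in αTC1 and -0.05 in βTC3.

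**Figure D3:**
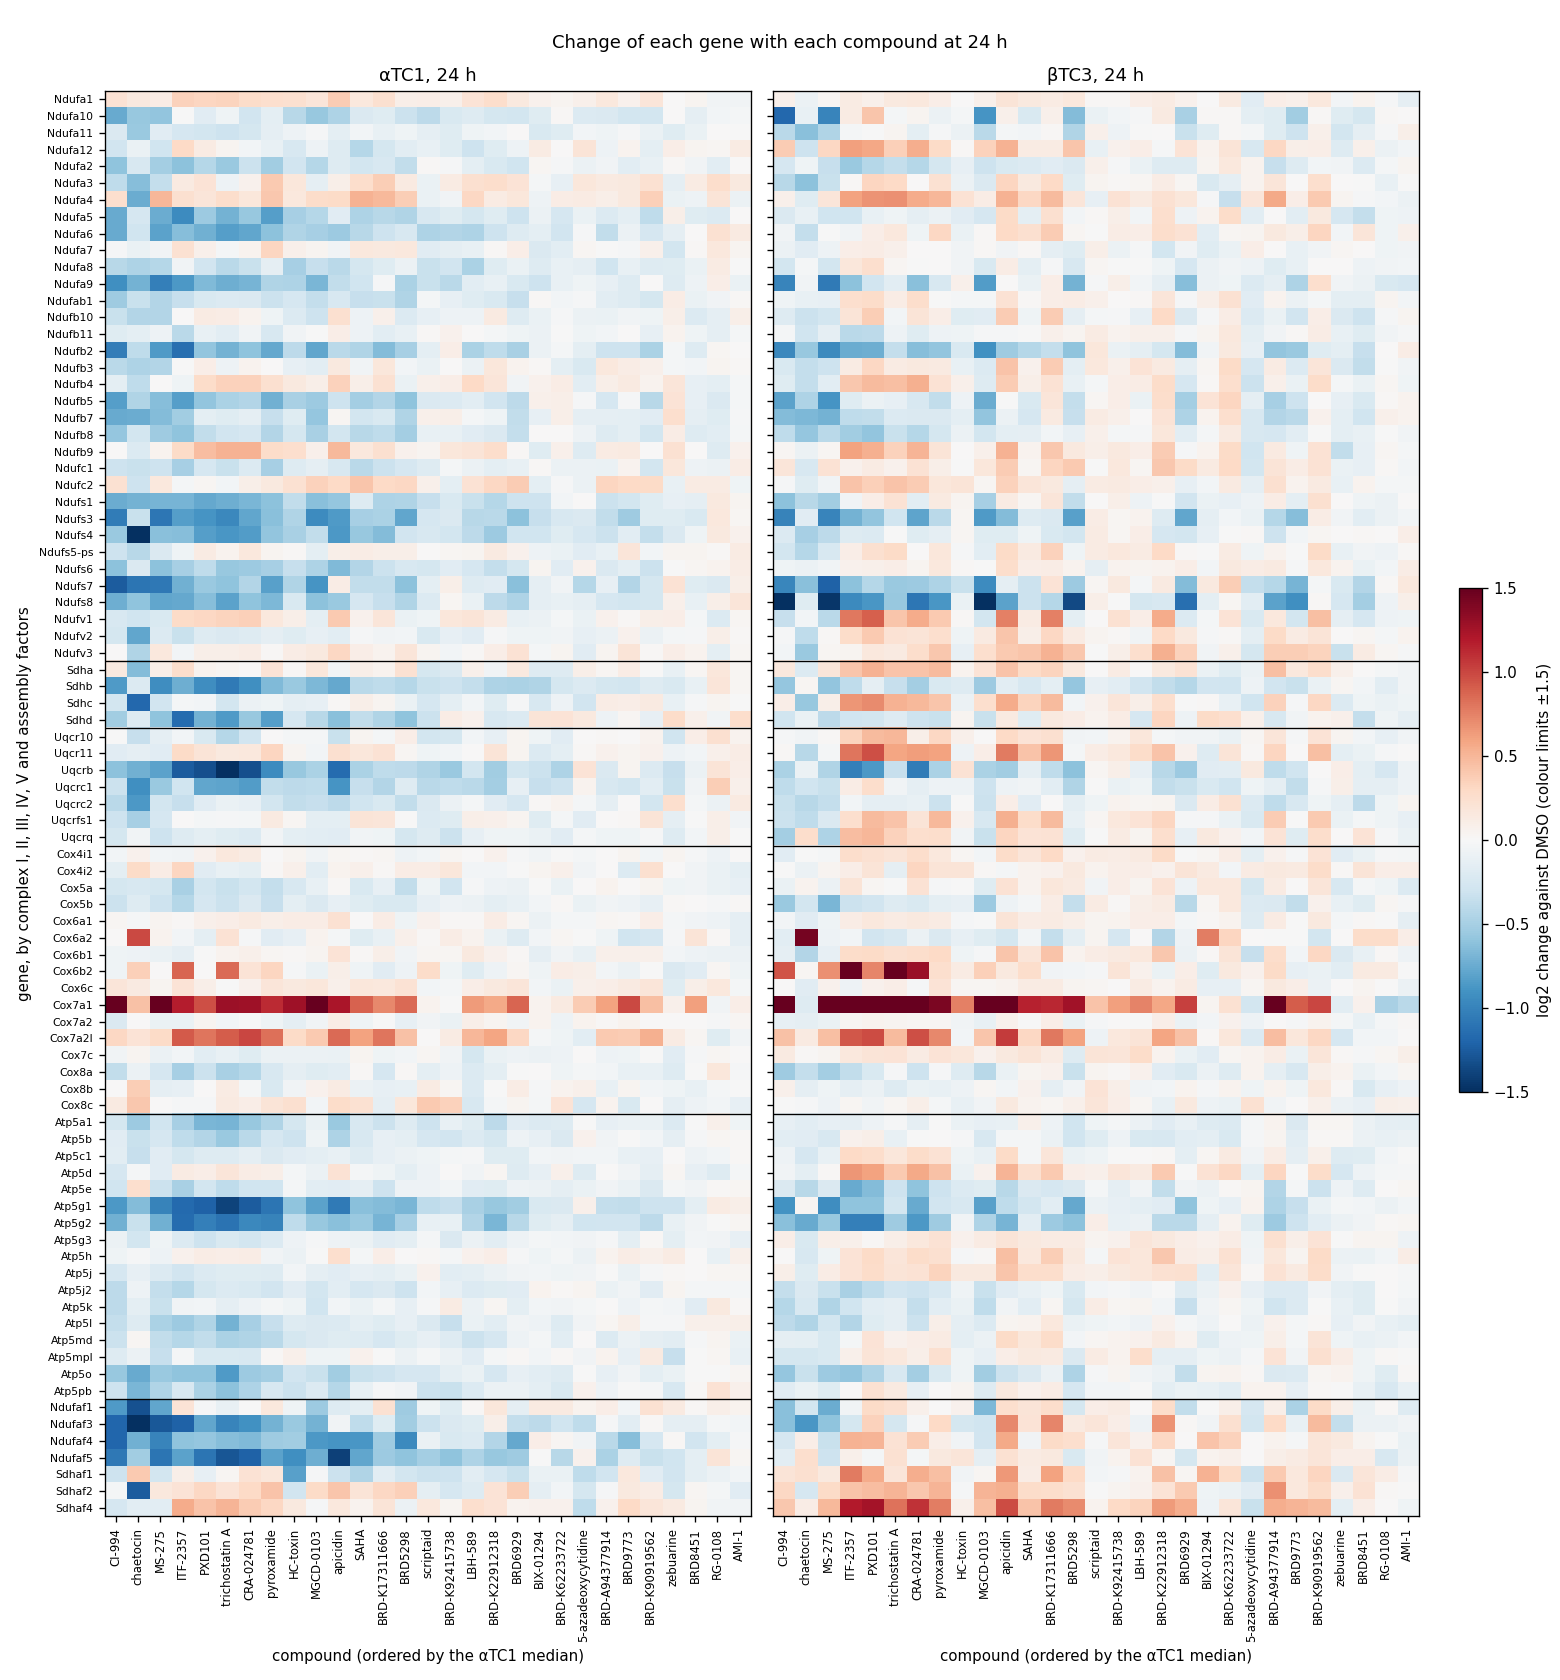
Log2 change against DMSO of the same line at 24 h for the 85 genes, ordered by complex, with each of the 29 compounds, αTC1 in the left panel and βTC3 in the right. Cox7a1 rose with 20 of the 29 compounds in each panel, and lower values fill more of the αTC1 panel (599 falls) than of the βTC3 panel (348 falls).

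The ortho-amino anilides lowered most called genes in both lines. In αTC1 6 of the 85 genes rose and 55 fell, together 71.8%, where 43.8% of all genes changed, 21.2% upward and 22.5% downward, and the median change was -0.24. In βTC3 9 rose and 45 fell, together 63.5%, where 43.7% of all genes changed, 22% upward and 21.7% downward, and the median was -0.18. A tested difference between the lines was found for 23 genes (5 higher and 18 lower in αTC1), 27.1%, where 27.9% of all genes differed, a share near the background. Of the 85 genes 42 fell in both lines and 2 rose in both. In αTC1 2 genes lay above and 20 below all DMSO arrays without overlap, and in βTC3 1 and 13. Limma called 43.8% and 43.7% of all genes, another measure, and the share of all genes without overlap was not counted. Complex I held 25 falls in αTC1 and 21 in βTC3 (3 and 2 rises), the ATP synthase 14 and 10 (0 and 1 rises), complex III 5 and 5 (0 and 0), complex IV 4 and 3 (3 and 3), complex II 3 and 2 (0 and 1) and the assembly factors 4 and 4 (0 and 2). At 6 h 11 genes rose in αTC1 and 1 fell (14.1%, against 26.6% of all genes), and βTC3 had 9 rises and 9 falls (21.2%, against 29.4%).

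Cox7a1 rose most here too. In αTC1 it had levels of 8.63, 8.18 and 8.01 with MS-275, 8.69 and 8.76 with CI-994, and 8.29, 8.61 and 8.90 with MGCD-0103, against 5.44, 6.77 and 7.47 in DMSO (lowest, median and highest). In βTC3 it had 7.14, 6.70 and 7.10 with MS-275, 7.28, 7.01 and 7.23 with CI-994, and 7.38, 7.10 and 7.33 with MGCD-0103, against 4.72, 5.13 and 5.85 in DMSO. All anilide arrays lay above all DMSO arrays in both lines, with a change of 1.73 ± 0.11 in αTC1 (limma adjusted p = 9.69e-22) and 2.07 ± 0.11 in βTC3 (adjusted p = 7.84e-27). Cox7a2l rose by 0.33 and 0.44 in αTC1 and βTC3, and Cox6b2 (0.66) and Sdhaf4 (0.45) in βTC3. In βTC3 Sdhaf2, which adds the flavin to Sdha, rose by 0.37 and Ndufa12 by 0.35. The probe sets of Sdhaf2 disagreed in direction in αTC1 and those of Ndufs4 in βTC3.

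The widest fall was in Ndufs8 in βTC3. There Ndufs8 had 8.27, 8.88 and 8.47 with MS-275, 8.24, 8.24 and 8.39 with CI-994 and 8.44, 8.38 and 8.49 with MGCD-0103, against 9.83, 10.02 and 10.25 in DMSO (lowest, median and highest). Every anilide array lay below every DMSO array, and the change was -1.58 ± 0.058 (adjusted p = 2.01e-35, limma). In αTC1 Ndufs8 had 9.96, 9.97 and 9.76 with MS-275, 9.94 and 10.02 with CI-994 and 10.16, 10.02 and 10.00 with MGCD-0103, against 10.43, 10.63 and 10.86, again without overlap (-0.71). Further subunits of the same arm of complex I fell in both lines, Ndufs7 by 1.07 and 1.04 and Ndufs3 by 1.02 and 0.94, in αTC1 and βTC3. Assembly factors fell in αTC1, Ndufaf3 by 1.06, Ndufaf4 by 1.01 and Ndufaf5 by 0.97, the last by 0.20 in βTC3. Ndufa10 had 7.72, 8.28 and 7.95 with MS-275, 7.70, 7.74 and 7.94 with CI-994 and 8.41, 8.20 and 7.66 with MGCD-0103 in βTC3, against 8.71, 9.03 and 9.35 in DMSO, all lower (-1.02), and the mean of its probe sets gave -0.49. Further accessory subunits fell in βTC3, Ndufa9 by 0.96 and Ndufb2 by 0.94, and Atp5g1 fell by 0.89 in αTC1 and 0.88 in βTC3.

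Over all 29 compounds at 24 h Cox7a1 rose with 20 in each line and fell with 0, with a median change of 0.72 in αTC1 and 1.00 in βTC3. Its highest changes were 1.84 with MGCD-0103 in αTC1 and 2.19 with ITF-2357 in βTC3. It was not called at 1 h with either class, was 0.39 higher with hydroxamic acids and 0.63 higher with anilides at 6 h in αTC1, and 0.84 and 0.79 higher in βTC3, all called. Among compounds given by code name, whose doses differ, it rose by 0.85 with BRD5298 (10 µM), 0.87 with BRD6929 (0.91 µM) and 0.99 with BRD9773 (10 µM) in αTC1, and by 1.26, 1.03 and 0.91 in βTC3. With BRD-A94377914 at 3 µM it rose by 0.60 in αTC1 and 1.70 in βTC3. Cox7a2l rose with 15 compounds in αTC1 and 14 in βTC3, Sdhaf4 with 17 in βTC3 and Ndufa1 with 14 in αTC1. The genes that fell with at least 17 compounds in αTC1 were Ndufb2 and Atp5g2 (20 each), Ndufs3 (19), Ndufaf4 (18), Atp5g1, Ndufab1 and Ndufb5 (17 each). Those that fell with at least 16 in βTC3 were Ndufb2 and Ndufs8 (18 each), Atp5g2 and Atp5e (16 each). These comparisons share DMSO arrays within a line, so the counts are not independent of each other. Over all genes 21.3% of the tests at 24 h were called in αTC1 and 18.2% in βTC3. How many of all genes were called with as many compounds was not counted.

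**Figure D4:**
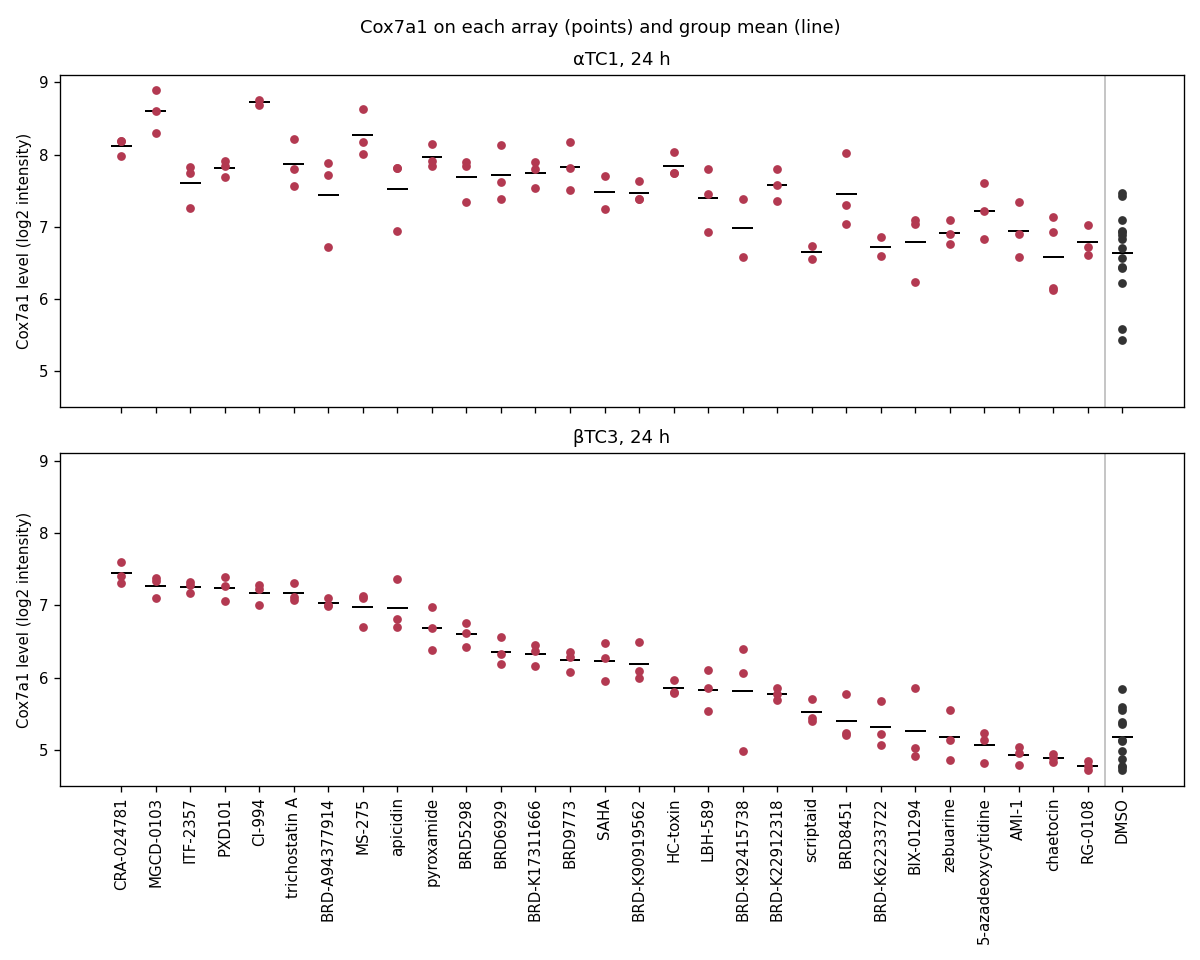
Log2 level of Cox7a1 on every array at 24 h by compound, with DMSO at the end, αTC1 in the upper panel and βTC3 in the lower. Anilide arrays sit between 8.01 and 8.90 in αTC1 and between 6.70 and 7.38 in βTC3, above all DMSO arrays (at most 7.47 and 5.85).

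How alike the genes moved was described by Pearson's r between the changes of a gene and the median change of the set over the 29 compounds at 24 h, points that share DMSO arrays. The median r was 0.63 in αTC1, with 48 genes over 0.5 and 17 below 0, and 0.57 in βTC3, with 53 over 0.5 and 5 below 0. The median change includes the gene itself. Other sets of genes were not measured in this way, so whether these values are high for a set is not known. Most like the set were Ndufa9 in αTC1 (0.90) and, in βTC3, Ndufb3 and the pseudogene entry Ndufs5-ps (0.93 each), and Ndufa9 and Ndufb3 are accessory subunits of complex I. Cox7a1 (-0.67), Ndufa1 (-0.59) and Cox7a2l (-0.47) in αTC1, and Cox6a2 (-0.44) and Atp5e (-0.38) in βTC3, ran the other way.

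Apicidin split the lines by direction. In αTC1 14 genes rose and 30 fell, together 51.8%, where 37.7% of all genes changed, 19.2% upward and 18.5% downward (median -0.14). Without replicate 1 of apicidin, an alternative chosen after seeing the data, 10 rose and 17 fell in αTC1. In βTC3 40 rose and 10 fell, together 58.8%, where 36.1% of all genes changed, 18.7% upward and 17.4% downward (median 0.19). The response was lower in αTC1 for 39 genes and higher for 0, 45.9%, where 25% of all genes differed. In αTC1 3 genes lay above and 14 below all DMSO arrays, and in βTC3 28 and 5. Limma called 37.7% and 36.1% of all genes, another measure, and the share of all genes without overlap was not counted. Cox7a1 had 7.81, 7.82 and 6.94 with apicidin in αTC1, against at most 7.47 in DMSO, and 7.37, 6.82 and 6.71 in βTC3, against at most 5.85, so that 1 array in αTC1 lay within the DMSO range. The αTC1 array at 6.94 was of batch 10, where the DMSO arrays had 5.58 and 5.44. Cox7a1 rose by 1.23 and 1.88, and Cox7a2l by 0.85 and 1.05. In αTC1 Ndufaf5 had 5.43, 6.92 and 6.86 with apicidin, against 7.20, 7.77 and 8.22 in DMSO (lowest, median and highest), all lower, with replicate 1 (5.43) far below the others. Ndufaf5 fell by 1.40, and by 0.69 without replicate 1 of the compounds. Uqcrb (-1.15, and -0.64 without replicate 1) and Atp5g1 (-1.06) fell with it, and the complex I subunit Ndufb9 rose by 0.49. In βTC3 Ndufaf5 had 7.0, 6.74 and 6.89, against 6.21, 6.77 and 6.94, within or just above the DMSO range. Sdhaf4 (0.98) and Uqcr11 (0.77) rose there, and Ndufs8 (-0.81), Atp5g2 (-0.70), Ndufs3 (-0.66) and Ndufb2 (-0.54) fell.

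HC-toxin, the other cyclic tetrapeptide, was given at another dose, and its values are set beside those of apicidin without a comparison. In αTC1 3 genes rose and 30 fell with HC-toxin (38.8%, against 21.9% of all genes), and in βTC3 1 rose and 0 fell (1.18%, against 2.2%). Cox7a1 had 7.75, 8.04 and 7.74 with HC-toxin in αTC1, above all DMSO arrays, and 5.79, 5.81 and 5.96 in βTC3, of which 1 lay above all DMSO arrays.

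Chaetocin lowered genes in both lines, with the most falls in complex I, which is also the largest group of the set. In αTC1 (4 arrays) 9 genes rose and 50 fell, together 69.4%, where 47.9% of all genes changed, 23.4% upward and 24.5% downward, and the median was -0.30. In βTC3 2 rose and 41 fell, together 50.6%, where 30.9% of all genes changed, 15.4% upward and 15.5% downward, and the median was -0.18. Without overlap 1 gene lay above and 22 below the DMSO arrays in αTC1, and 1 and 24 in βTC3, and the share of all genes without overlap was not counted. The responses of 30 genes (9 higher and 21 lower in αTC1), 35.3%, differed between the lines, where 28.8% of all genes did. Of 34 complex I genes 27 fell and 1 rose in αTC1, and 19 fell and 0 rose in βTC3. Of 17 ATP synthase genes 9 and 10 fell (1 and 0 rose). Complex IV was mixed in αTC1, with 6 rises and 2 falls. The rises were in Cox6a2, Cox7a1, Cox8c, Cox8b, Cox6b2 and Cox4i2, with mean signals from 2.98 to 6.14, low for the set. When the fit was varied, Cox7a1 and Cox4i2 each turned in 1 alternative, and Cox6b2, Cox8b and Cox8c each lost the call in 1. Of 9 alternatives Cox4i2 also lost the call in 3, without the batch term, with quantile normalization and with only the arrays compared. With chaetocin 7 of the 16 markers of other cell types rose and 1 fell in αTC1, and the sum of their intensities had a lowest, median and highest value of 211.1, 230.6 and 299.9, against 178.4, 202.6 and 237.5 in DMSO. In βTC3 the sums were 130.1, 143.6 and 145.2 with chaetocin, against 126.2, 132 and 140.7 in DMSO, and their part in the result was not tested.

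Ndufs4, an accessory subunit of complex I, fell most in αTC1, with levels of 7.96, 6.93, 7.63 and 8.37 with chaetocin, against 9.16, 9.57 and 9.75 in DMSO (lowest, median and highest). All chaetocin arrays lay below all DMSO arrays, and the change was -1.76, against -0.50 in βTC3. Ndufaf3 had 7.22, 6.91, 6.98 and 7.28, against 8.38, 8.61 and 8.96, also apart, and fell by 1.54 in αTC1 and 0.88 in βTC3. Ndufaf1 (-1.31), Sdhaf2 (-1.25) and Sdhc (-1.18) fell in αTC1, and Atp5g2 (-0.75), Ndufb7 (-0.68) and Ndufs7 (-0.63) in βTC3. The muscle form Cox6a2 of a complex IV subunit rose in both lines. It had 5.17, 5.52, 5.20 and 4.87 with chaetocin in αTC1, against 3.87, 4.15 and 4.72 in DMSO, and 6.37, 5.27 and 5.08 in βTC3, against 3.73, 4.18 and 4.51. All chaetocin arrays were higher than all DMSO arrays in both lines, by 0.99 in αTC1 and 1.44 in βTC3. Cox7a1 had 6.93, 6.15, 6.13 and 7.13 with chaetocin in αTC1, within the DMSO range. Its change of 0.44 was called with the batch term and was -0.06 without it. The arrays at 6.15 and 6.13 were of batch 10, where the DMSO arrays had 5.58 and 5.44. The assembly factor Sdhaf1 rose by 0.39 in αTC1. With BIX-01294, given at another dose, 0 genes rose and Ndufaf3 fell (-0.39) in αTC1, where 1.6% of all genes were called, and Cox6a2 (0.76), Sdhaf1 (0.52) and Ndufaf4 (0.43) rose in βTC3 with 0 falls, where 1.2% were called.

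Related compounds at a matched dose were compared directly in 2 pairs in each line at 10 µM and 24 h, 4 comparisons, each adjusted over all genes. ITF-2357 and pyroxamide are both hydroxamic acids. In αTC1 ITF-2357 gave a higher level than pyroxamide for Cox6b2 (0.55) and a lower one for Ndufaf3 (-0.50), 2 genes of 85 where 2.34% of all genes differed, and 0 were called without replicate 1 or without replicate 2. In βTC3 8 genes were higher and 12 lower with ITF-2357, 23.5%, where 16.3% of all genes differed, and the split was 8 higher and 6 lower after each array was centred on its median. Cox6b2 had 4.72, 5.34 and 4.77 with ITF-2357, against 3.24, 3.11 and 3.27 with pyroxamide, with every array of ITF-2357 above every array of pyroxamide (1.91 ± 0.19, limma adjusted p = 2.61e-12). Cox7a1 was higher by 0.77, and Ndufaf3 (-0.57), Atp5l (-0.53), Atp5g2 (-0.49) and Atp5e (-0.45) were lower. The count in βTC3 was 5 to 13 when 1 replicate was left out, and the 3 ITF-2357 arrays of βTC3 come from 1 batch. The nucleoside analogues 5-azadeoxycytidine and zebuarine differed in αTC1 for 3 genes, all lower with 5-azadeoxycytidine, Ndufs7 (-0.63), Sdhaf4 (-0.52) and Ndufb9 (-0.43), where 6.19% of all genes differed, and 0 were called without replicate 2 or without replicate 3. In βTC3 limma called 0 genes of the set for this pair (7 at an unadjusted p under 0.05), with changes between -0.34 and 0.31, where 0.229% of all genes differed.

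Genes that work beside the respiratory chain were read from lists of their own. Of 19 genes of the citric acid cycle and pyruvate entry 13 were higher and 3 lower in αTC1 than in βTC3 in DMSO, where 59.6% of all genes differed. With hydroxamic acids 2 of the 19 rose and 9 fell in αTC1, 12 rose and 2 fell in βTC3, and the tested difference was lower in αTC1 for 13 and higher for 1, where 50.4% and 43.2% of all genes changed and 35.8% differed. Idh3a, a subunit of the NAD-dependent isocitrate dehydrogenase, fell by 0.57 in αTC1 and rose by 0.21 in βTC3. Chaetocin lowered 14 of the 19 and raised 1 in αTC1, and lowered 8 and raised 0 in βTC3, where 47.9% and 30.9% of all genes changed. Of 12 further assembly and copper delivery genes the hydroxamic acids raised 2 and lowered 9 in αTC1, and raised 4 and lowered 3 in βTC3, while the anilides raised 1 and lowered 11 in αTC1, and raised 0 and lowered 6 in βTC3. All-gene shares were the 50.4% and 43.2% above for the hydroxamic acids, and 43.8% and 43.7% for the anilides. Lrpprc, which keeps mitochondrial messages stable, fell by 0.56 and 0.28 with hydroxamic acids and by 0.81 and 0.83 with anilides in αTC1 and βTC3. Cyc1, the cytochrome of complex III that the prefixes do not take in, fell by 0.65 in αTC1 with hydroxamic acids and changed by -0.05 in βTC3, not called.

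Of 12 regulators of these genes the hydroxamic acids raised 3 and lowered 5 in αTC1, and raised 2 and lowered 2 in βTC3, while the anilides raised 0 and lowered 6 in αTC1, and raised 1 and lowered 4 in βTC3, beside those same shares of all genes (50.4% and 43.2%, 43.8% and 43.7%). Nrf1 fell by 0.74 in αTC1 and 0.47 in βTC3 with hydroxamic acids and by 0.58 and 0.59 with anilides. Gabpa, which encodes the DNA-binding part of the ETS factor GABP, fell by 0.36 and 0.62 with anilides, and was not called with hydroxamic acids (-0.16 and -0.12). Tfam, the mitochondrial transcription factor, was called with neither class, with changes between -0.06 and 0.03.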

How the data were processed

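Gene expression was measured in αTC1 and βTC3 cells with 29 compounds or DMSO on 594 Affymetrix arrays. The authors deposited intensities on a linear scale, 1 for each probe set on each array, for which the submitters' processing notes name RMA. Its version, and whether anything was scaled afterwards, are not given in the sources used here. From 3.962 to 13635 the intensities were turned into log2 values here. Of 22716 probe sets 18003 carried 1 symbol, 287 several and 4426 none, and only the first kind was used, with 1 probe set per gene, that of the highest mean. For 38 of the 85 genes there was more than 1. No 2 arrays were identical. Line, compound, dose, time and batch came from the titles.

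Each line and time was fitted in R 4.3.3 (package data.table at 1.17.8) and limma 3.58.1, with the 7 batches as a fixed term, and p-values were adjusted over all 11807 genes by Benjamini-Hochberg. A class is the mean of its compounds, each weighted alike. Lines, and DMSO over time, were compared in joint fits with batch. The code was tested on simulated data. Figures and motif searches used Python 3.11.15 and matplotlib 3.10.9, with promoters from RefSeq (GRCm38.p6). The text names genes by a rule: the 6 largest called rises and falls per comparison, 4 for a single compound, and set isoform, ring and core genes. A part of these is printed, and genes of the per-compound counts and the likeness, and genes named from the other lists, were picked after their values were seen. The genes and lists were chosen with earlier results of these data known. Some genes of these complexes are not reported here. As alternatives, the fit was run with no batch term, with the array plate as random block, with centring, quantile normalization, a level filter, probe-set means, only the arrays compared, 1 adjustment over all compounds, a replicate block, and replicates or compounds left out in turn.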

Additional observations from a re-analysis of the deposited data

Results flagged for a closer look

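Responses that differed between the lines at 24 h by limma's test of the difference itself were found for 56 genes with hydroxamic acids, 23 with ortho-amino anilides, 39 with apicidin and 30 with chaetocin. Of all genes 35.8%, 27.9%, 25% and 28.8% differed, in that order, and the share of the set with anilides was near that of all genes. Named genes with a tested difference in the response to hydroxamic acids, αTC1 minus βTC3, were Ndufaf5 (-0.95), Ndufaf4 (-0.74), Ndufaf3 (-0.74), Ndufa6 (-0.72), Cox7a1 (-0.58), Ndufs1 (-0.57) and Ndufa1 (0.14). Of 30 genes looked at among the 4 arrays of chaetocin in αTC1, 1 had an array far from the others, Cox7a2, at 11.70 beside 11.56 to 11.57 in the others. Chance sets 1 array apart in about 1 in 20 groups.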

How the results depend on the processing

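The precision of these values is limited by the number of arrays, 2 to 4 for a compound. Over the alternatives the count of called genes ran from 71 to 74 between the lines, from 52 to 62 in αTC1 and 54 to 60 in βTC3 with hydroxamic acids, from 43 to 67 and 47 to 58 with anilides, and from 47 to 63 for the difference of the hydroxamic acid response, and the median changes between the lines and with both classes kept their sign. The calls summed over compounds at 24 h ran from 506 to 822 in αTC1 and from 443 to 804 in βTC3, the 443 with only the arrays compared. Without the 2 DMSO arrays of βTC3 at 24 h that stood farthest from their group, a choice made after seeing the data, the counts were 71 between the lines, 56 with hydroxamic acids and 56 with anilides in βTC3, and 55 for the difference.

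Genes called with apicidin in αTC1 (44) were 27 to 41 with 1 replicate of it left out, the 27 without replicate 1, and those with apicidin in βTC3 and with chaetocin stayed within 1.5 times. Small counts moved. Genes called between ITF-2357 and pyroxamide in αTC1 (2) were 1 without the batch term, 1 with the level filter, 4 with plate as a block, 0 with only the arrays compared and 0 to 2 with a replicate left out. In βTC3 (20) they were 7 without the batch term, 7 with only the arrays compared and 5 to 13 with a replicate left out. For 5-azadeoxycytidine against zebuarine in αTC1 (3) they were 1 without the batch term, 7 with the level filter, 1 with plate as a block and 0 to 3 with a replicate left out. Between 24 h and 1 h in DMSO of αTC1 (1) they were 0 without the batch term, centred or quantile normalized, and 2 with the level filter, probe-set means or plate as a block, and in βTC3 (6) 2 without the batch term. With the replicate number as a block beside batch the 4 comparisons of pairs gave 2, 3, 18 and 0 genes, against 2, 3, 20 and 0, and same-numbered arrays correlated, in their deviations from the group means, by -0.51 to 0.31, so that they share only a number.

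Of 3819 values of named genes under alternatives, 3661 kept direction and side of the threshold, 106 lost a call, 49 gained one and 3 turned. Those were Cox7a1 with chaetocin in αTC1 without the batch term (-0.06), Ndufa12 between the lines with probe-set means (0.36) and Cox4i2 with chaetocin in αTC1 without replicate 1 (-0.03, and -0.03 to 0.39 over the replicates left out), and the cause was not tested.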
